A study of Mus musculus with 2 samples.

Results

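The 46 genes described here encode enzymes and 1 transporter of amino acid catabolism, arginine and creatine synthesis, and renal ammonia production. They were chosen by name: each is the row of the deposited gene tables whose identifier carries that symbol in the GENCODE mouse annotation of mm10. All 46 were found in both tables, of 43346 gene rows. The tissue was kidney from C57BL/6J, an inbred laboratory strain. The labels give female sex and an age of 10 weeks, name no treatment, and do not say whether animals were pooled. Polyadenylated RNA of 1 tissue sample was sequenced as 2 libraries, numbered in the labels as technical replicates and called library 1 and library 2 here. There is thus 1 group, no comparison between conditions and no p-value. The spread between the libraries is that of repeated measurement, with no information on how animals vary.

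The kidney handles amino acids differently from the liver. Kidney tubules take up citrulline from the blood and turn it into arginine, part of which is used to make guanidinoacetate, the precursor of creatine, whereas the complete urea cycle is a property of the liver. Proximal tubule cells also break down glutamine to release ammonium, which is excreted with acid. They oxidise branched-chain amino acids, proline and glycine in their mitochondria, and they break down tyrosine as well. In whole tissue, fewer cells of a type and less RNA per cell cannot be told apart.

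Levels are given in TPM, a share of each library's transcripts corrected for their length and scaled to a fixed sum, with library 1 first wherever a pair of values is given. The libraries held 28263730 and 20720537 expected counts, and they stood far apart. The mitochondrial genome's own genes held 51.7% and 19.8% of TPM, which lowers the TPM of every other gene in library 1 by construction. Differences are therefore given as the log2 ratio of library 2 over library 1 on counts scaled by TMM, a scaling to the bulk of genes. Its exact 95% interval covers counting error only. A gene with at least 10 counts over both libraries was called different at a ratio of 2-fold or more, and since 1 library stands on each side, the ratio has no replicate check. The median log2 ratio of all 15553 genes compared was 0.17. As for the tissue label, 7 of 8 proximal tubule markers and 6 of 7 markers of the loop, distal tubule and collecting duct reached TPM 1 in both libraries. The libraries differed in these markers too. Of the proximal tubule list 4 were called toward library 2 and 1 toward library 1, and of the other list 5 and 1. Among all genes compared, 37.3% and 25.1% were called in these directions, and these shares hold as background for the calls in each pathway group below. In the other list the highest mean levels were those of Umod (381 and 2636 TPM), called toward library 2, and Slc12a1 (400 and 568 TPM), not called. Its most extreme ratios were those of Aqp2 of the collecting duct (0.79 and 176 TPM) and, toward library 1, Calb1 of the distal tubule (193 and 124 TPM).

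Base composition differs among members that work in the same enzyme complex or pathway, and it moved with the library ratios given further on. The stretches that follow lie in coding exons and are written 5′ to 3′ on the coding strand, with G and C in capitals. Each is the 120-base stretch inside 1 exon whose GC content lies nearest to that of its whole transcript, so it was picked to represent the transcript. All were read from the GENCODE M21 transcripts on mm10. The first 3 encode subunits of the branched-chain ketoacid dehydrogenase complex: Bckdha (exon 2 of 9, chr7:25641699-25641818, minus strand), Bckdhb (exon 4 of 11, chr9:83988781-83988900, plus strand) and Dbt (exon 6 of 11, chr3:116539091-116539210, plus strand). G or C made up 57.5%, 47.5% and 41.7% of the bases.
Bckdha: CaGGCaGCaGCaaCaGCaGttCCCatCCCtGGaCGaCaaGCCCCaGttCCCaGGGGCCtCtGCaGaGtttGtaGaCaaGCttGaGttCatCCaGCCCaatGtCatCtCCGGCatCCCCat
Bckdhb: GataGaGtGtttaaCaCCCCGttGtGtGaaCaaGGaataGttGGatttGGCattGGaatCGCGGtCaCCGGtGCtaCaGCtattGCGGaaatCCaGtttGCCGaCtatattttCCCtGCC
Dbt: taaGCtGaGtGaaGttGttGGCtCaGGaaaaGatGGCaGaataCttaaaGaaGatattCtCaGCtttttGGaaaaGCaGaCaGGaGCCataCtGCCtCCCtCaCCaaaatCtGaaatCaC
The others encode both enzymes of creatine synthesis, Gatm (exon 3 of 9, chr2:122603636-122603755, minus strand, 43.3% GC) and Gamt (exon 2 of 6, chr10:80259775-80259894, minus strand, 59.2%), and the arginine synthesis enzyme Ass1 (exon 5 of 16, chr2:31480977-31481096, plus strand, 55%).
Gatm: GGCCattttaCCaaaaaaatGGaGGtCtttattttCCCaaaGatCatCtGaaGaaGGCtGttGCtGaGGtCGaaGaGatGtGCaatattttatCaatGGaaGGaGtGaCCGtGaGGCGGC
Gamt: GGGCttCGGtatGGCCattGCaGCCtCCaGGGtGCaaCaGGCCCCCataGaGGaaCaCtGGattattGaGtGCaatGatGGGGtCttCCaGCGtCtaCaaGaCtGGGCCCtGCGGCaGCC
Ass1: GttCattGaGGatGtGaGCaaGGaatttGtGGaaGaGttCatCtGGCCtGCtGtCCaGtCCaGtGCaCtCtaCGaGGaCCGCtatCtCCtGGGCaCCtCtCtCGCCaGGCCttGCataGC

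Most of the 46 genes were clearly expressed. TPM of 1 or more in both libraries was reached by 36 of 46, against 22.0% of all annotated genes. In library 2 alone 43 reached it, where 31.0% of annotated genes did, and in library 1 alone 36, where 22.3% did. The 7 members that reached it only in library 2 were Gamt, Prodh, Prodh2, Bcat1, Bcat2, Bckdha and Slc38a3, and the 3 that stayed under TPM 1 in both were Arg1, Otc and Cps1. The median member stood at 18.3 TPM in library 1 and 92.5 TPM in library 2. TPM of 100 or more was reached by 4 members in library 1 (Gatm, Hibadh, Glud1 and Hgd; 0.989% of annotated genes) and by 21 in library 2 (2.55% of annotated genes). The summed share of the 46 genes was 0.225% and 0.731% of TPM.

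**Figure D1:**
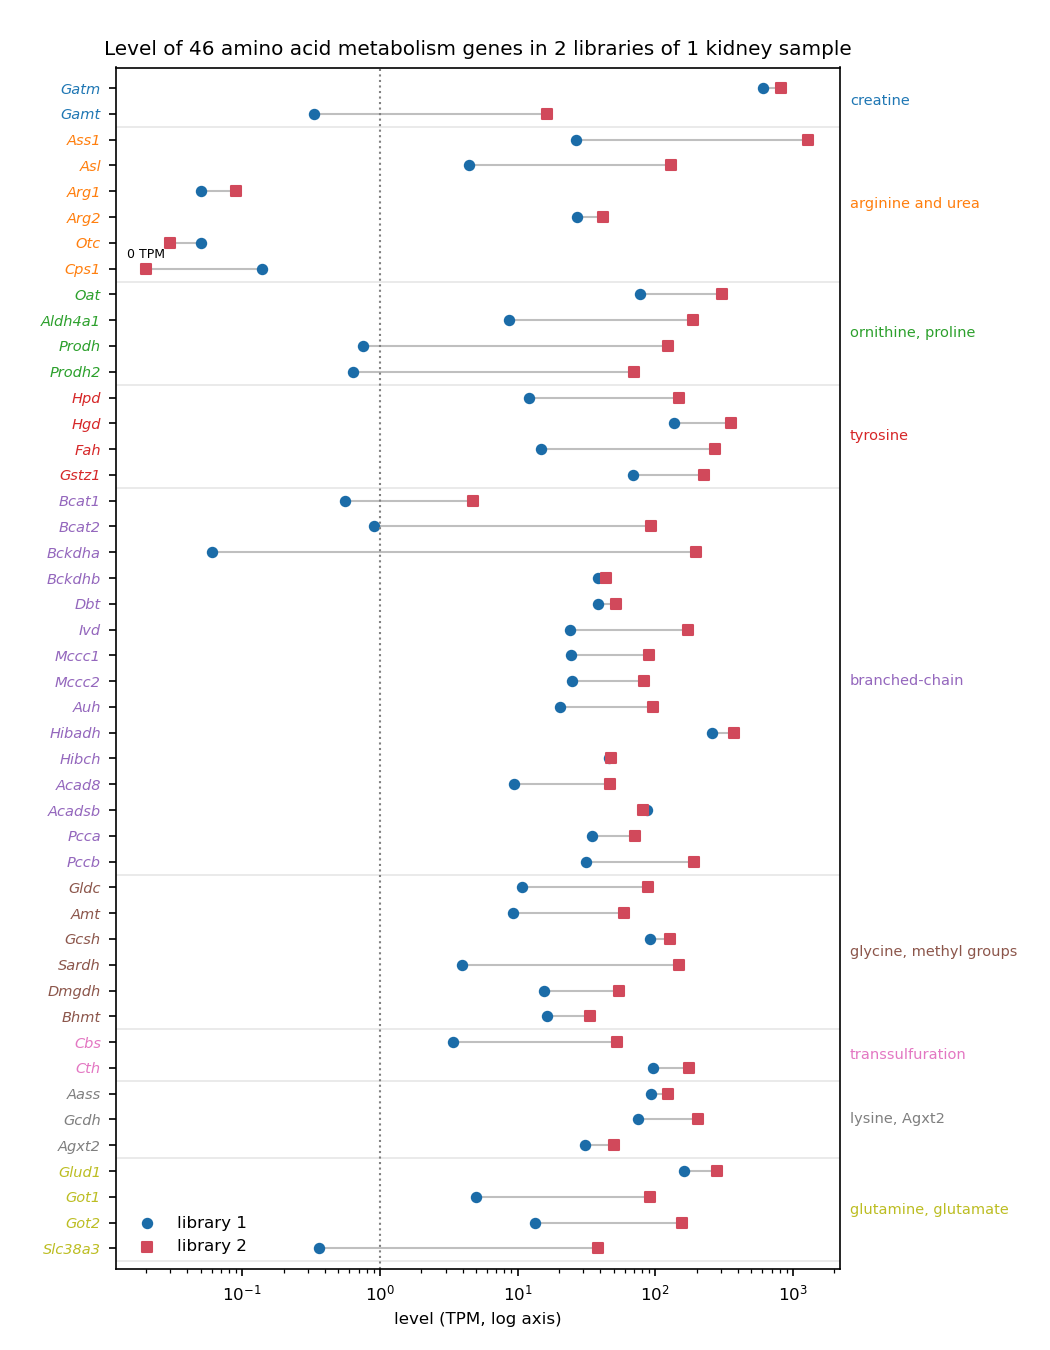
Level of each of the 46 genes in TPM (log axis) in library 1 (circles) and library 2 (squares), with gene names coloured and grouped by pathway and a dotted line at TPM 1. Library 2 lies to the right for 43 of 46 genes, Arg1, Otc and Cps1 lie left of the line in both libraries, and Cps1, at 0 TPM in library 2, is drawn at the left edge.

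Both enzymes of arginine synthesis were expressed, while Cps1, Otc and Arg1 of the liver urea cycle stayed under TPM 1. Ass1, argininosuccinate synthase, joins citrulline to aspartate and had 26.5 and 1278 TPM. In library 2 it was the member of highest level and ranked 57 among all genes. Asl, argininosuccinate lyase, releases arginine from that product and had 4.42 and 129 TPM. Both were higher in library 2, Ass1 by a log2 ratio of 4.29 (interval 4.2 to 4.37) and Asl by 4.17 (3.93 to 4.43). In each library Ass1 stood above Asl, 6-fold in library 1 and 9.89-fold in library 2.

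The enzymes that feed citrulline to the cycle in liver were nearly undetected. Cps1, carbamoyl phosphate synthetase, had 0.14 and 0 TPM, from 23 counts in library 1 and 0 in library 2. Against a floor of 3 counts, the number that a count of 0 allows, it was at least 10.2-fold lower in library 2 if the 23 counts are taken as exact. With counting error in both libraries, the upper end of its interval was a log2 ratio of -2.93. It is the only arginine or urea cycle member called toward library 1. Otc, ornithine transcarbamylase, had 0.05 and 0.03 TPM from 3 and 1 counts. Nags, which makes the activator of Cps1, was at 0 and 0.26 TPM.

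Of the arginases, which split arginine into urea and ornithine, the mitochondrial form dominated. Arg2 had 27 and 41.8 TPM from 1030 and 851 counts, while Arg1, the cytosolic liver form, had 0.05 and 0.09 TPM from 2 counts in each. Arg2 was under 2-fold between the libraries, with a log2 ratio of -0.68 (interval -0.81 to -0.55).

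Hepatocyte markers were read beside these values. Of 10 such genes, 6 reached TPM 1 in both libraries and 2, Cyp2c29 and Ahsg, stayed under it in both, with Ahsg at 0 counts in library 2. The list summed to 82.8 and 127 TPM, of which Apob held 66.4 and 53.7 TPM and Ttr 2.49 and 31.6 TPM. Its part in the levels of members that liver also expresses was not tested.

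The first enzyme of creatine synthesis was among the most abundant members, and the next stood far below it in both libraries. Gatm, which transfers the amidino group of arginine to glycine, had 605 and 826 TPM, a mean of 715 ± 156 (SD over n = 2 libraries), and ranked 53 and 102 among all genes. Gamt, which methylates the product to creatine and is known to act mainly in liver, had 0.33 and 16.4 TPM from 3 and 215 counts. Gamt was 54.1-fold higher in library 2 with a counting interval of 18.3 to 264, whereas Gatm had a log2 ratio of -0.86 (-0.88 to -0.84). With mitochondrial genes left out of the sum, Gatm stood at 1253 and 1030 TPM, so that the order of its TPM in the libraries turned.

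Ornithine and proline breakdown genes were high in library 2. Oat, ornithine aminotransferase, links ornithine to the proline and glutamate pathway and had 77.2 and 304 TPM, a log2 ratio of 0.66. Prodh and Prodh2, the dehydrogenases that start the breakdown of proline and hydroxyproline, had 0.75 and 123 TPM and 0.64 and 70.0 TPM. Aldh4a1, which completes both routes to glutamate or its hydroxylated form, had 8.67 and 188 TPM. The 3 dehydrogenases were called toward library 2, with log2 ratios of 6.32 for Prodh, 5.6 for Prodh2 and 3.12 for Aldh4a1, while Oat was under 2-fold.

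All 4 genes of tyrosine breakdown exceeded 10 TPM in both libraries. Hgd, homogentisate dioxygenase, led them with 136 and 357 TPM. Gstz1, the maleylacetoacetate isomerase, followed with 68.4 and 226 TPM. Fah, which performs the last hydrolysis to fumarate and acetoacetate, had 14.9 and 272 TPM, and Hpd, which makes homogentisate, 12.2 and 149 TPM. The level of Hgd was 11.2 times that of Hpd in library 1 and 2.39 times in library 2. Hpd, Fah and Hgd were called toward library 2 (log2 ratios of 3.23, 2.88 and 1.12) and Gstz1 was not (0.41).

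Branched-chain amino acid breakdown was represented by 15 members, of which 14 exceeded 10 TPM in library 2 and 11 in library 1. The share of all annotated genes at 10 TPM was not counted, so nothing particular to the members is read from counts at that level. The first step is a transamination. Bcat2, the mitochondrial aminotransferase, had 0.9 and 93.6 TPM and Bcat1, the cytosolic form, 0.56 and 4.74 TPM. Bcat2 was thus 1.61-fold above Bcat1 in TPM in library 1 and 19.8-fold above it in library 2. In library 1 this rests on 30 counts for Bcat2 and 96 for Bcat1, so the order by counts was the opposite there. The mean transcript length of Bcat1, by which TPM divides, was 5771 bases in library 1 and 2538 in library 2. Bcat2 was called toward library 2 with a log2 ratio of 5.66 (interval 5.16 to 6.25), and Bcat1 was under 2-fold at 0.52.

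The next step, oxidative decarboxylation by the branched-chain ketoacid dehydrogenase complex, showed the largest gap between the libraries. Bckdha, the alpha subunit of its first component, had 0.06 and 197 TPM from 3 and 5135 counts. Bckdhb, the partner beta subunit, had 38.4 and 44.02 TPM, and Dbt, the transacylase core, 38.3 and 52.1 TPM. Bckdha was 1292-fold higher in library 2 with a counting interval of 442 to 6266, whereas Bckdhb had a log2 ratio of -0.12 and Dbt one of -0.87. In library 1 the level of Bckdhb was 639 times that of Bckdha, and in library 2 it was 0.223 times that level. The first of these ratios rests on the 3 counts of Bckdha. The levels of Bckdhb include all its transcripts, and its coding transcript of 1472 bases held 10.2% of the gene in library 1 and 60.2% in library 2. The ratio is therefore not one of coding transcripts. The files list 1 transcript of Bckdha, and the annotation places B3gnt8, with 0 and 43 counts, on the opposite strand over part of it.

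Of the 10 members downstream of the complex, 6 were under 2-fold in scaled counts, where 62.4% of all genes compared were past 2-fold. In leucine breakdown, Ivd had 23.9 and 172 TPM, the carboxylase subunits Mccc1 and Mccc2 24.3 and 89.5 TPM and 24.9 and 82.3 TPM, and the hydratase Auh 20.3 and 96.3 TPM. The level of Mccc1 was 0.976 times that of Mccc2 in library 1 and 1.09 times in library 2. In valine breakdown, Hibadh was the most abundant branched-chain member of both libraries (259.7 and 372 TPM), Hibch had 45.8 and 47.5 TPM and Acad8 9.37 and 47.2 TPM. Acadsb of isoleucine breakdown had 87.7 and 81.0 TPM. The propionyl-CoA carboxylase subunits, which receive the products of valine and isoleucine, were at 34.7 and 71.3 TPM for Pcca and 31.3 and 192 TPM for Pccb.

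Of the 15 branched-chain genes, Bcat2, Bckdha, Ivd and Pccb were called toward library 2, Hibch and Acadsb toward library 1, and 9 were under 2-fold. Over all genes compared, 37.3% were called toward library 2 and 25.1% toward library 1. Hibch had a log2 ratio of -1.28 and Acadsb one of -1.17, and both lost the call under scaling by total counts, with or without mitochondrial genes. With the GC trend, described further on, removed, their direction turned, to 0.15 for Hibch and 0.53 for Acadsb. For Acadsb this rests on a GC value of 39.5% that is not that of its leading transcript. That transcript held 64.7% of the gene in library 1 and 95.3% in library 2, and had no usable GC value.

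Glycine cleavage and the use of choline-derived methyl groups were covered by 6 members, all above 3 TPM in both libraries. In the glycine cleavage system, Gldc, the decarboxylase, had 10.8 and 88.8 TPM, Amt, the aminomethyltransferase, 9.34 and 59.2 TPM, and Gcsh, the lipoyl carrier protein, 91.5 and 128 TPM. Gcsh stood 8.49-fold above Gldc in library 1 and 1.44-fold above it in library 2. Sardh and Dmgdh, which demethylate sarcosine and dimethylglycine, had 3.97 and 149 TPM and 15.5 and 54.7 TPM, so that the order of these enzymes differed between the libraries. Bhmt, which remethylates homocysteine with betaine, had 16.3 and 33.4 TPM. Gldc, Amt and Sardh were called toward library 2 (log2 ratios of 1.73, 1.28 and 4.24), and the other 3 were under 2-fold.

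In transsulfuration, which makes cysteine from homocysteine, the enzyme of the closing step exceeded that of the first. Cth, cystathionine gamma-lyase, had 96.6 and 177 TPM, and Cbs, cystathionine beta-synthase, 3.39 and 52.5 TPM. Cth was 28.5-fold above Cbs in library 1 and 3.36-fold above it in library 2. Cbs was called toward library 2 with a log2 ratio of 4.17 (interval 3.85 to 4.52), while Cth was nearly equal at 0.03.

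Lysine breakdown genes and Agxt2 differed little. Aass, the bifunctional first enzyme of the main lysine route, had 92.5 and 124 TPM, and Gcdh, glutaryl-CoA dehydrogenase, 75.3 and 204 TPM. Agxt2, a mitochondrial aminotransferase that also acts on dimethylarginines, had 30.9 and 49.9 TPM. None of the 3 was called, with log2 ratios of -0.86, 0.1 and -0.65. Their median of -0.65 turned to 0.21 under scaling by total counts, the only one of the 9 pathway groups whose median changed sign among the 4 scalings run.

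Genes of glutamine and glutamate handling were present with their main enzymes. Slc38a3, the basolateral glutamine transporter SNAT3 that supplies ammoniagenesis, had 0.36 and 38.2 TPM from 25 and 1406 counts. Glud1, glutamate dehydrogenase, which releases the amino group of glutamate as ammonium, had 162 and 281 TPM, a mean of 221 ± 84.5 (SD over n = 2 libraries). The aspartate aminotransferases Got1 of the cytosol and Got2 of mitochondria had 4.98 and 91.3 TPM and 13.4 and 156 TPM. Slc38a3 was called toward library 2 with a log2 ratio of 5.38 (interval 4.84 to 6.04), as were Got1 (2.84) and Got2 (2.22), and Glud1 was under 2-fold at -0.66.

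Of 44 members compared, 23 were past 2-fold in either direction, where 62.4% of all genes compared were, and 20 (45.5%) were called toward library 2, where 37.3% of all genes were. Toward library 1, 3 members were called (6.82%), Cps1, Hibch and Acadsb, against 25.1% of all genes, and 21 were under 2-fold. The median member ratio was 0.68 against 0.17 over all genes. Arg1 and Otc had too few counts to compare. With scaling by total counts, 28 members were called toward library 2 and 1 toward library 1, where 50.3% and 5.36% of all genes were, so the split depends on the scaling.

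**Figure D2:**
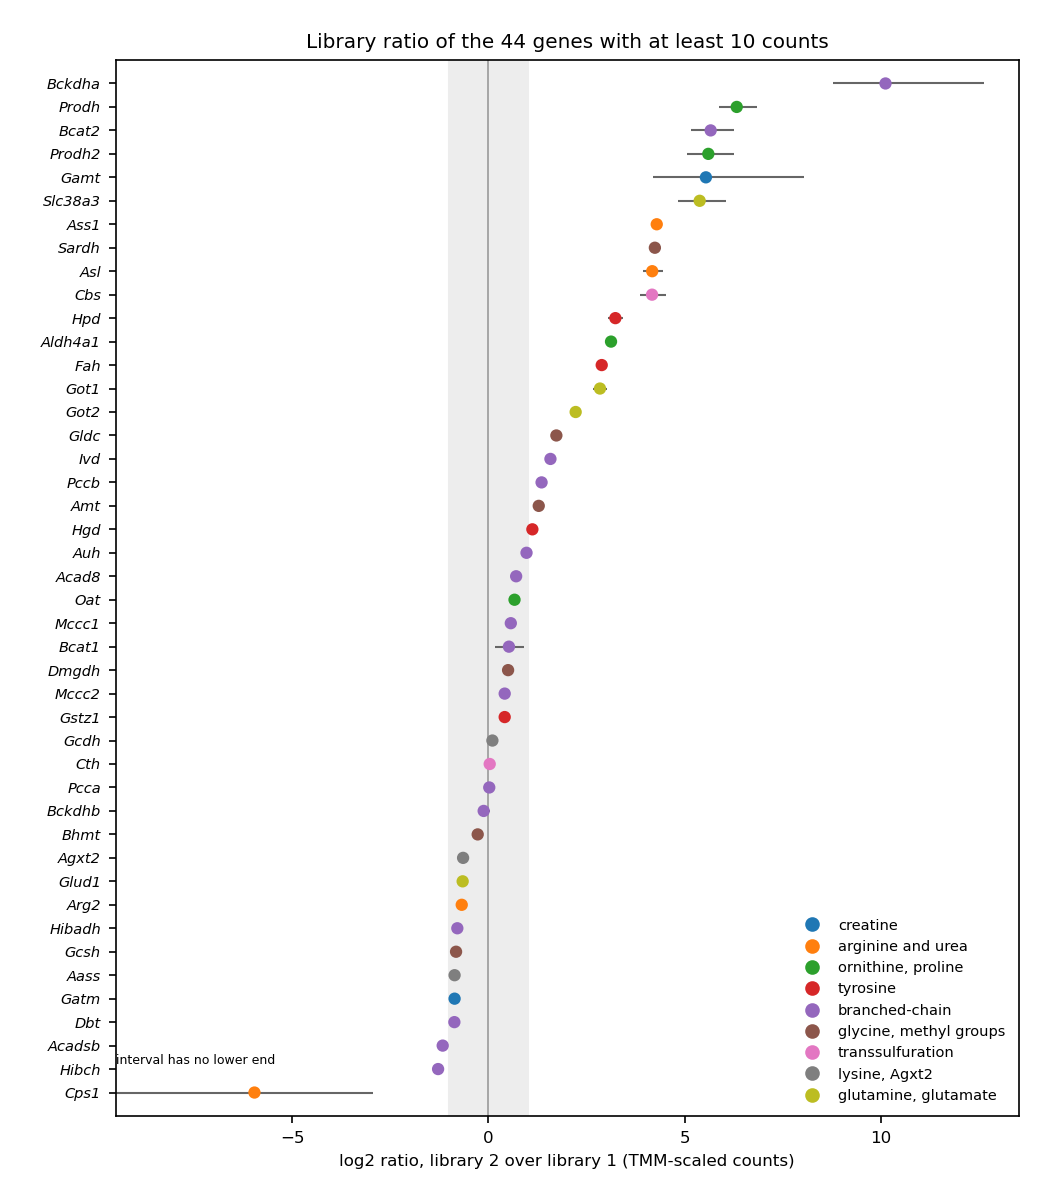
Log2 ratio of library 2 over library 1 on TMM-scaled counts for the 44 genes with at least 10 counts, coloured by pathway, with bars for the exact 95% counting interval and a grey band for ratios under 2-fold. Bckdha lies farthest right at 10.1, 21 genes lie in the band, and Cps1 lies farthest left with an interval that has no lower end because library 2 holds 0 counts.

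The library ratio of the members followed the GC content of their transcripts. Of 43 members with a GC value, the 10 at 55% or more (Gamt, Asl, Aldh4a1, Prodh, Prodh2, Bcat2, Bckdha, Sardh, Cbs and Slc38a3) were all called toward library 2, where 93.4% of all genes in that class were. Their median log2 ratio was 5.46 and that of all genes in the class 3.79. The 8 members under 45% (Gatm, Bckdhb, Dbt, Hibch, Acad8, Acadsb, Cth and Aass) had a median of -0.86, beside -1.42 for all genes in the class, and none was called toward library 2, where 0.503% of all genes in the class were. The 14 members between 50% and 55% had a median of 1.47 and the 11 between 45% and 50% one of -0.65. Across the 43 members, which share the same pair of libraries, Spearman's rho between ratio and GC content was 0.92, and across 11508 genes with at least 100 counts it was 0.915. For genes with several transcripts, the GC value is that of a transcript chosen by its mean TPM in these same libraries. It is therefore not independent of the ratio.

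**Figure D3:**
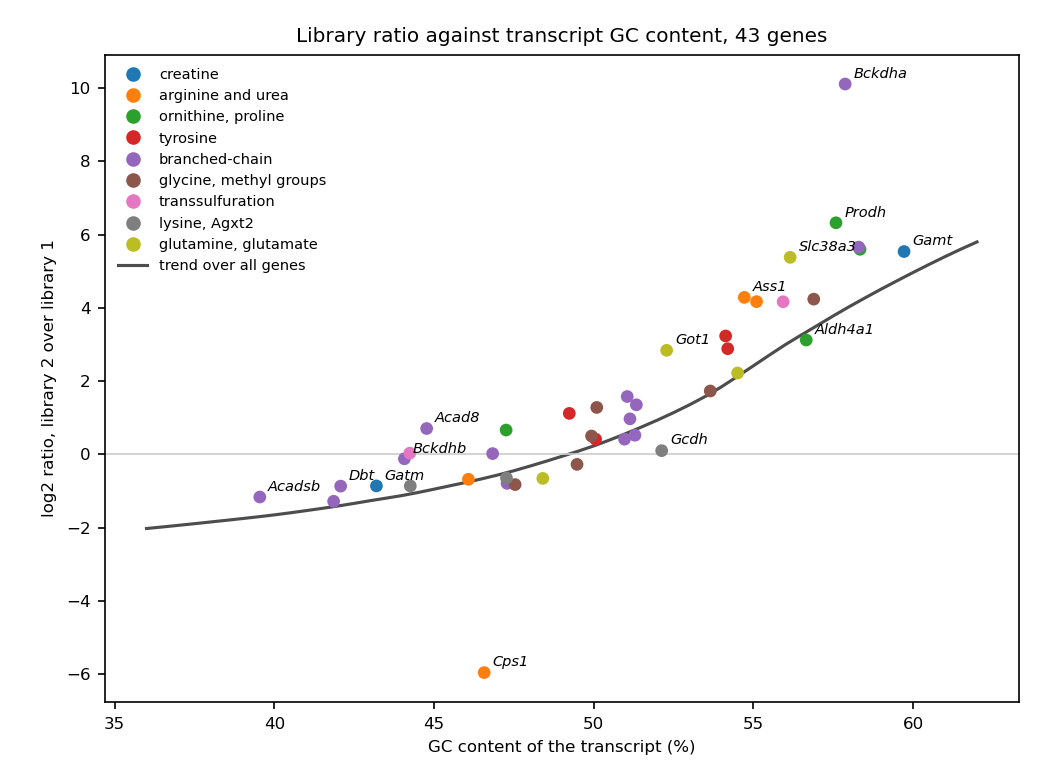
Log2 ratio of library 2 over library 1 against transcript GC content in percent for 43 genes, coloured by pathway, with the smooth trend fitted over all genes with at least 100 counts. The genes rise with the trend from -1.17 for Acadsb at 39.5% GC to 5.54 for Gamt at 59.7% GC, and Bckdha lies far above it at 10.1. The GC value of Acadsb is not that of its leading transcript. The point of Cps1 at -5.96 is set by the prior count, since library 2 holds 0 counts.

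Removal of that trend left 15 of 43 members (34.9%) past 2-fold toward library 2, where 14.3% of all genes were, and 1 member, Cps1, toward library 1 (13.2% of all genes). The median member stood at 0.62 and the median gene at -0.02. Bckdha kept the largest value at 6.14, and Prodh (2.5), Slc38a3 (2.3), Ass1 (2.03), Got1 (1.79) and Asl (1.7) also stayed past 2-fold. Oat (1.17), Acad8 (1.7) and Cth (1.12) were under 2-fold with TMM alone and past it here. Gamt fell to 0.7, Sardh to 0.78 and Got2 to 0.09, all under 2-fold. In this setting Aldh4a1, called toward library 2 before, stood at -0.22.

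The transcripts assigned to a gene also differed between the libraries. Of the 35 compared members with more than 1 annotated transcript, 14 had another leading transcript in library 2 than in library 1. Among all protein-coding genes of that kind at TPM 1 or more in a library, this was the case for 37.4%. The transcript leading in library 2 was longer in 13 of the 14 and richer in GC in 12 of the 12 with both values. The shares of all genes with these directions were not counted, so nothing particular to the members is read from them. In 7 of the 14 the gene had at least 100 counts in each library, namely Asl, Hpd, Hgd, Bckdhb, Pccb, Sardh and Gcdh. The other 7 had 3 to 96 counts in library 1, and their shares there are weakly supported.

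For Hgd, a transcript of 616 bases annotated without a coding sequence held 66.3% of the gene in library 1 and 0% in library 2, where the coding transcript of 1702 bases held 95.5%. For Bckdhb, a transcript of 540 bases held 70.3% in library 1 and 21.7% in library 2, and the coding transcript of 1472 bases 10.2% and 60.2%. The GC value used for Bckdhb above is that of the shorter transcript, 44.1%, while the coding one, from which its stretch was shown, has 50.2%. For Hpd the leading transcripts had 744 and 1402 bases, and for Sardh 2744 and 4521. The mean transcript length of the gene was at least 1.2 times longer in library 2, a factor chosen after the values were seen, for 10 compared members (Gamt, Asl, Prodh, Hpd, Hgd, Bckdhb, Pcca, Sardh, Cbs and Cth). That held for 14.9% of protein-coding genes. It was shorter by that factor for 2 (Bcat1 and Acad8), against 7.99% of protein-coding genes. TPM divides by this length, so such members have TPM ratios that differ from their count ratios by construction.

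**Figure D4:**
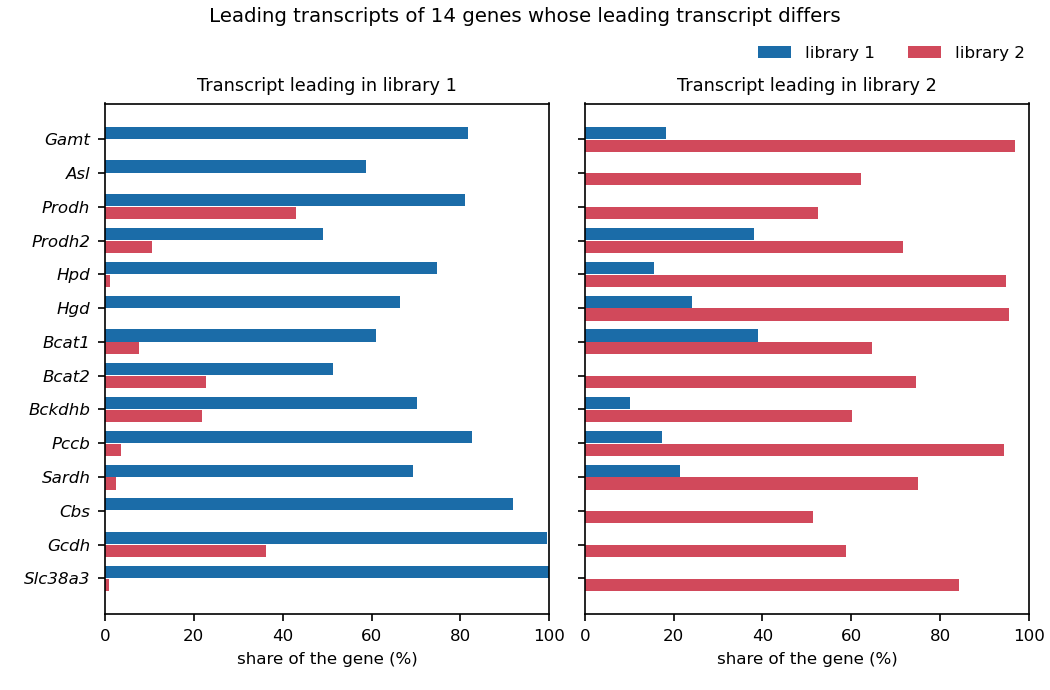
Share of the gene in percent, in library 1 (blue) and library 2 (red), held by the transcript that led in library 1 (left panel) and by the one that led in library 2 (right panel), for the 14 genes whose leading transcript differed. Each leader of library 1 holds less of its gene in library 2, with Hgd going from 66.3% to 0%.

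Some members share sequence with other genes, which makes their counts less certain. Ass1, Bhmt and Got2 each matched another gene at 95% identity or more over at least 50% of the transcript. These were Gm5424 for Ass1 (99.5% identity over 73.1%; 0.28 and 12.4 TPM), Gm5096 for Bhmt (0.02 and 0.45 TPM) and, for Got2, Gm10874 and Got2-ps1 (0 and 0.93 TPM for the latter). Annotated exons of another gene overlapped those of 14 members, among them Vti1b over Arg2 (1173 and 1181 counts), Ggact over Pcca (792 and 1469 counts) and Pomt2 over Gstz1 (339 and 662 counts), all on the opposite strand. Whether the counting used strand was not stated in the sources read here.

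Other genes of these pathways were read from lists. Of 82 non-members in 9 lists, 73 had enough counts, of which 39 were called toward library 2 and 7 toward library 1. The shares over all genes, 37.3% and 25.1%, hold as background for each list below, and nothing is read from a list near them. Of 11 compared genes in the ammonia list, 7 were called toward library 2. The highest levels in the list were those of Pck1, which makes glucose precursors from the carbon skeleton of glutamine (246 and 1177 TPM), Ggt1, gamma-glutamyltransferase (5.17 and 556 TPM), and Glul, glutamine synthetase (97.1 and 334 TPM), of which Ggt1 was called. Gls2, the liver form of glutaminase, stayed under TPM 1 (0.02 and 0.22).

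Among 14 further arginine and creatine genes, 8 of 12 compared were called toward library 2 and none toward library 1. Ddah1, which breaks down dimethylarginines (53.6 and 95.9 TPM), the creatine transporter Slc6a8 (31.3 and 94.0 TPM) and the ornithine carrier Slc25a15 (45.1 and 76.7 TPM) had the highest levels of the list, and of these Slc6a8 was called. Besides Nags, the nitric oxide synthases Nos1 and Nos2 and the carrier Slc25a2 stayed under TPM 1. In the branched-chain list, 4 of 12 were called each way, and it was led by Aldh6a1 (377 and 405 TPM), the shared dehydrogenase subunit Dld (259 and 202 TPM) and the hydratase Echs1 (60.3 and 189 TPM). Dld, the third component of the branched-chain complex, had a log2 ratio of -1.67.

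In the phenylalanine list, Pcbd1 (118 and 361 TPM) and Qdpr (72.6 and 270.4 TPM), which regenerate the tetrahydrobiopterin cofactor, were not called, with log2 ratios of 0.31 and 0.42. Tat, the liver tyrosine aminotransferase, was under TPM 1 (0.01 and 0.03). Of 7 proline genes, 5 were called toward library 2, among them the dipeptidase Pepd (18.1 and 152 TPM) and Hoga1 (15.4 and 112 TPM). L3hypdh (17.9 and 31.1 TPM) was not called, and the proline synthesis enzyme Pycr1 was under TPM 1. Of 12 compared glycine and one-carbon genes, 8 were called toward library 2, among them Aldh7a1 (17.4 and 199 TPM) and Dao (5.37 and 165 TPM). Pipox (48.5 and 149.5 TPM) was not called, and Agxt, Tdh and Sds stayed under TPM 1. In the methionine and cysteine list, 4 of 8 were called toward library 2, among them Ahcy (24.5 and 193 TPM), and Mat2a (135 and 126 TPM) toward library 1. Cdo1 (60.9 and 121 TPM) was not called, and Mat1a, the liver form of methionine adenosyltransferase, was under TPM 1 (0.03 and 0.06). In the list of lysine end steps, Aadat (1666 and 1446 TPM), Hadh (62.2 and 299.6 TPM) and Dlst (48.1 and 192 TPM) had the highest levels. Of 5 genes 1 was called each way, Aadat toward library 1.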

How the data were processed

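Polyadenylated RNA of 1 kidney sample was measured in 2 libraries, grouped by the technical replicate number in the labels. The build (mm10) and annotation (GENCODE M4) are those named in the description deposited with the tables. Which software aligned and quantified the reads was not stated in any source read here. Expected counts and posterior mean counts, per the file headers, were deposited raw. TPM and FPKM, per the file headers, were deposited as length-corrected shares of each library. Each transcript's percent of its gene was also deposited by the authors.

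Rows without a mouse Ensembl gene identifier (97 spike-ins and 26248 numbered rows) held no counts and were left out. Symbols and coordinates were read from GENCODE M21, also on mm10. It matched 42462 of 43346 gene rows, and the others held 0.0741% and 0.0853% of expected counts. Expected counts were rounded and scaled by TMM (edgeR 4.0.16). The log2 ratio used a prior count of 0.5, and its Clopper-Pearson interval came from scipy 1.17.1. Genes with at least 10 counts were compared. GC content is that of the transcript with the highest mean TPM, among those whose length lay within 10% of the reference. Mccc1 had none and was left without a value. The leading transcript of Acadsb in both libraries, and that of Asl in library 2, failed this length match. Their values are those of other transcripts. For Prodh the value is 57.6%, that of the transcript leading in library 2, where the one leading in library 1 has 55.5%. Genes of 100 counts or more set the GC trend, smoothed by lowess in statsmodels 0.14.6 with a span of 20%. Shared sequence was searched with blastn 2.17.0. Ratio, interval and trend removal were run on counts simulated with counting error only and a straight GC trend. Shifts between transcripts and errors in the GC value were not simulated, so the tests do not cover them.

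Alternatives were other scalings (DESeq2 1.42.0 among them), trend removal, count minimums, prior count 5, posterior mean counts, each library alone, TPM without mitochondrial genes, and FPKM. All members are named. Of the other pathway lists, the 3 genes of highest mean TPM and those under TPM 1 in both libraries are named, except an item that is not reported here. Members and lists were chosen with earlier results of these data known. Protein sequences planned for related members are not shown. Coding stretches, chosen after the values were seen, are shown instead.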

Additional observations from a re-analysis of the deposited data

How the results depend on the processing

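The 3 members called toward library 1 became 1 with total counts, with total counts without mitochondrial genes and with the GC trend removed. The median log2 ratio of the members, 0.68, moved to 1.54 with total counts and 1.03 with total counts without mitochondrial genes. The count called toward library 2 ranged from 15 with the GC trend removed to 28 with total counts. Of the 23 called members, 3 changed sign with the trend removed: Aldh4a1 to -0.22, Hibch to 0.15 and Acadsb to 0.53. DESeq2 size factors, the other count minimums, prior count 5 and posterior mean counts changed the sign of no called member, but prior count 5 moved Cps1, at 0 counts in library 2, from -5.96 to -2.89. With 1 library left out, 36 to 43 members reached TPM 1, 29 to 42 reached TPM 10 (41 by the mean), and the median member ranged from 18.3 to 92.5 TPM (57.6 by the mean). With mitochondrial genes left out of the TPM sum, 34 of 46 members were higher in library 2 instead of 43. The cause of these shifts was not tested, except that other scalings shift every ratio by construction. Depth limits Arg1, Otc, Cps1, Gamt and Bckdha, each with 23 or fewer counts in library 1. A floor of 3 counts is 1.45e-05% of library 2.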

Other observations

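Histidine breakdown was weakly represented. Uroc1, urocanate hydratase, had 2.41 and 23.5 TPM, Ftcd, which passes the one-carbon unit to folate, 0.14 and 3.91 TPM, and Amdhd1 0.83 and 2.56 TPM. Hal, histidine ammonia-lyase, which starts the pathway and is abundant in liver and skin, had 0.01 and 0 TPM. Of the 3 genes compared, Uroc1 and Ftcd were called toward library 2, with log2 ratios of 1.97 and 2.93.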
